A study of Mus musculus with 24 samples.

Results

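The comparison concerned 6 libraries of macrophages sorted in bulk from the dura mater of mice, the outermost of the brain's coverings. Column names gave 3 of them the mark P6 and 3 the mark P4, and they were picked by those names alone out of the 24 columns of the series. The other 3 dural libraries, marked P5, entered the estimate of spread and are described by their place between both ends. All dural samples were labelled C57BL/6, wild type, 17 weeks old and at steady state, from perfused animals. The title of the series speaks of RAG-1 deficient mice given T cells, and no label ties a dural column to that treatment. The labels do not say what the marks stand for, nor what the number 1, 3 or 4 in each column name stands for. Their own subset names (C1, C2 and C3) do not match the marks, so no gate, surface protein or subset was assigned. No label says that the libraries came from separate mice, so p-values measure the spread between these libraries, which may be technical.

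Dural macrophages are resident phagocytes that sample antigen, clear debris and signal to T cells at the border of the brain. Across many tissues such cells range between a LYVE1 and folate receptor beta (Folr2) bearing type that sits near vessels and is rich in scavenger receptors, and a type with much MHC class II that is replaced from blood monocytes through the chemokine receptor CCR2. Itgax encodes CD11c, an integrin chain of dendritic cells and of many monocyte-derived macrophages.

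The P4 libraries held 10457920 to 16328691 counts and the P6 libraries 11775166 to 14593506. Levels are given as CPM, counts per 1000000 after TMM scaling of library sizes, and library values follow the order of numbers 1, 3 and 4. CPM are not corrected for gene length, so levels were compared between libraries and not between genes. The P4 library of number 1 stood apart, with 371 genes at a single count against 682 to 1480 in the other 8 dural libraries. In the P6 library of number 1 the choroid plexus gene Ttr was at 3093 CPM, against 12.8 and 23.2 CPM in the other P6 libraries. Every count below was repeated without the 3 libraries of number 1.

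Genes of other cells also moved with the marks, and a bulk sort cannot tell fewer cells of a type from less RNA per cell. The summed level of 14 fibroblast genes was 4677, 5979 and 3470 CPM in P4, between 1355 and 1589 CPM in P5, and 1054, 1231 and 916 CPM in P6. The fibroblast sums of the ends did not overlap, and 12 of the 14 genes were lower in P6. The summed level of 8 mast cell genes was 151, 173 and 41.3 CPM in P4 and 7.02, 5.9 and 3.75 CPM in P6. Of 6 osteoclast genes tested, 4 were higher and 1 lower in P6, against 16.1% and 17.2% of all genes. Among them Acp5 was at 42.8, 26.4 and 52.7 CPM in P4 and at 178, 230 and 175 CPM in P6. The summed level of 8 osteoclast genes overlapped, at 578, 612 and 864 CPM in P4 and 574, 648 and 559 CPM in P6. Of 10 meningeal and choroid genes tested, 7 were lower and 0 higher in P6. Genes of the T cell receptor complex stayed near 0, with at most 14 counts of Cd3d, Cd3e or Cd3g in any P4 or P6 library. The part of these cells in any result below was not tested except where a value is given.

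Across all genes the ends differed widely. Of 13239 genes tested, 2135 were higher in P6 (16.1%) and 2277 were lower (17.2%) at an adjusted p of 0.05 in edgeR's quasi-likelihood test. Each count of list members called higher or lower is to be read against these shares. Changes of at least 1 on the log2 scale were found in 784 of the higher and 1352 of the lower genes. In 6171 genes (46.6%) the 3 P6 values and the 3 P4 values did not overlap, and 4327 of these were also called. Scaling by library totals in place of TMM factors moved the median of all genes from -0.004 to -0.135 log2 units, and gave 1609 higher and 3000 lower genes. The share of higher calls was then 34.9%, against 48.4% with TMM factors. Without the libraries of number 1 the counts were 2236 higher and 2403 lower. The first principal component of log2 CPM, with 50.3% of the variance, placed P4 at -74.6 to -51.6, P5 at -7.3 to 1.4 and P6 at 58.3 to 74.1. No P5 value overlapped either end on that component.

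**Figure D1:**
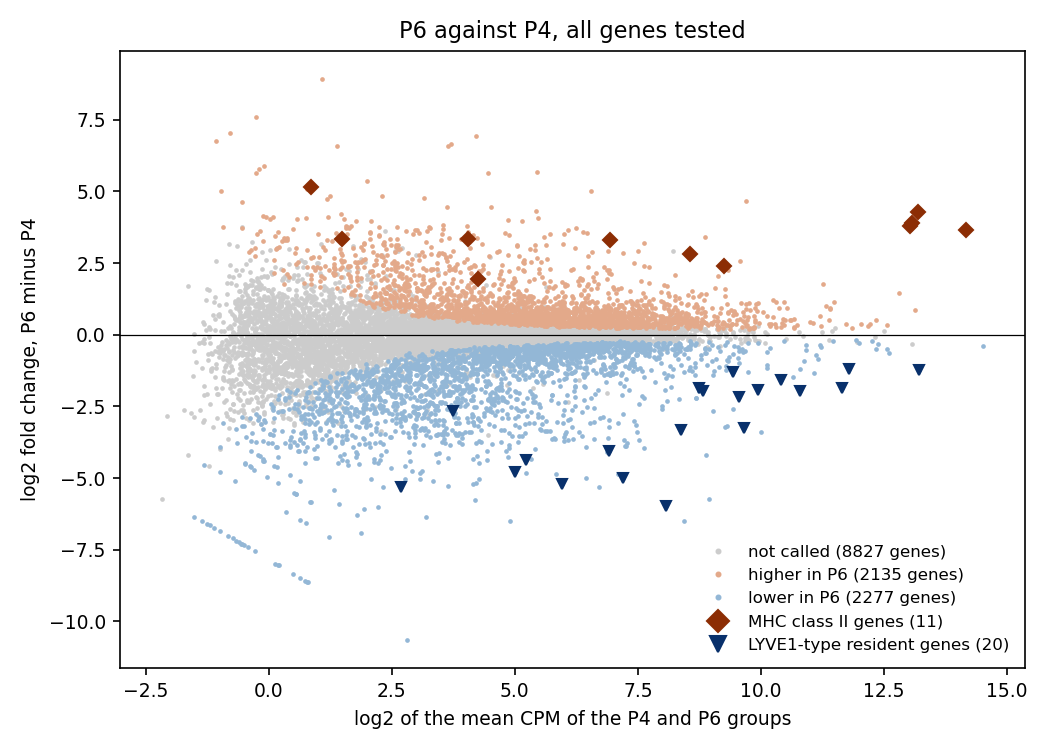
Each point is 1 of the 13239 genes tested, with the log2 of its mean CPM in the P4 and P6 groups on the horizontal axis and its log2 fold change, P6 minus P4, on the vertical axis. The 11 MHC class II genes (diamonds) lie above 0 between 1.94 and 5.17, and the 20 LYVE1-type genes (triangles) lie below 0 between -5.97 and -1.18.

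The 4 marker genes split the marks without overlap. Ccr2, the receptor that brings monocytes into tissue (GRCm38 chr9:124101950-124113557), was at 108, 49.9 and 34.7 CPM in P4 and at 1696, 1535 and 1590 CPM in P6. All P6 libraries were far above all P4 libraries, a log2 difference of 4.66 ± 0.43 (SE, n = 3 a side, edgeR adjusted p = 0.000191). Itgax (chr7:128129547-128150657) was at 10.9, 3.01 and 3.93 CPM in P4 and at 175, 209 and 161 CPM in P6, a log2 difference of 5.0 ± 0.42 (edgeR adjusted p = 4.34e-05). For both genes the highest P4 value was that of number 1.

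Lyve1, a hyaluronan receptor of lymphatic vessels and of vessel-bound macrophages (chr7:110850607-110863239), went the other way. It was at 298, 260 and 295 CPM in P4 and at 5.02, 6.23 and 15.2 CPM in P6, a log2 difference of -4.99 ± 0.42 (edgeR adjusted p = 6.52e-05). Folr2, a folate receptor (chr7:101839988-101857194), was at 538, 583 and 692 CPM in P4 and at 55.9, 51.8 and 75.5 CPM in P6. Its log2 difference was -3.31 ± 0.16 (edgeR adjusted p = 3.23e-08), and no P6 library came near a P4 library.

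**Figure D2:**
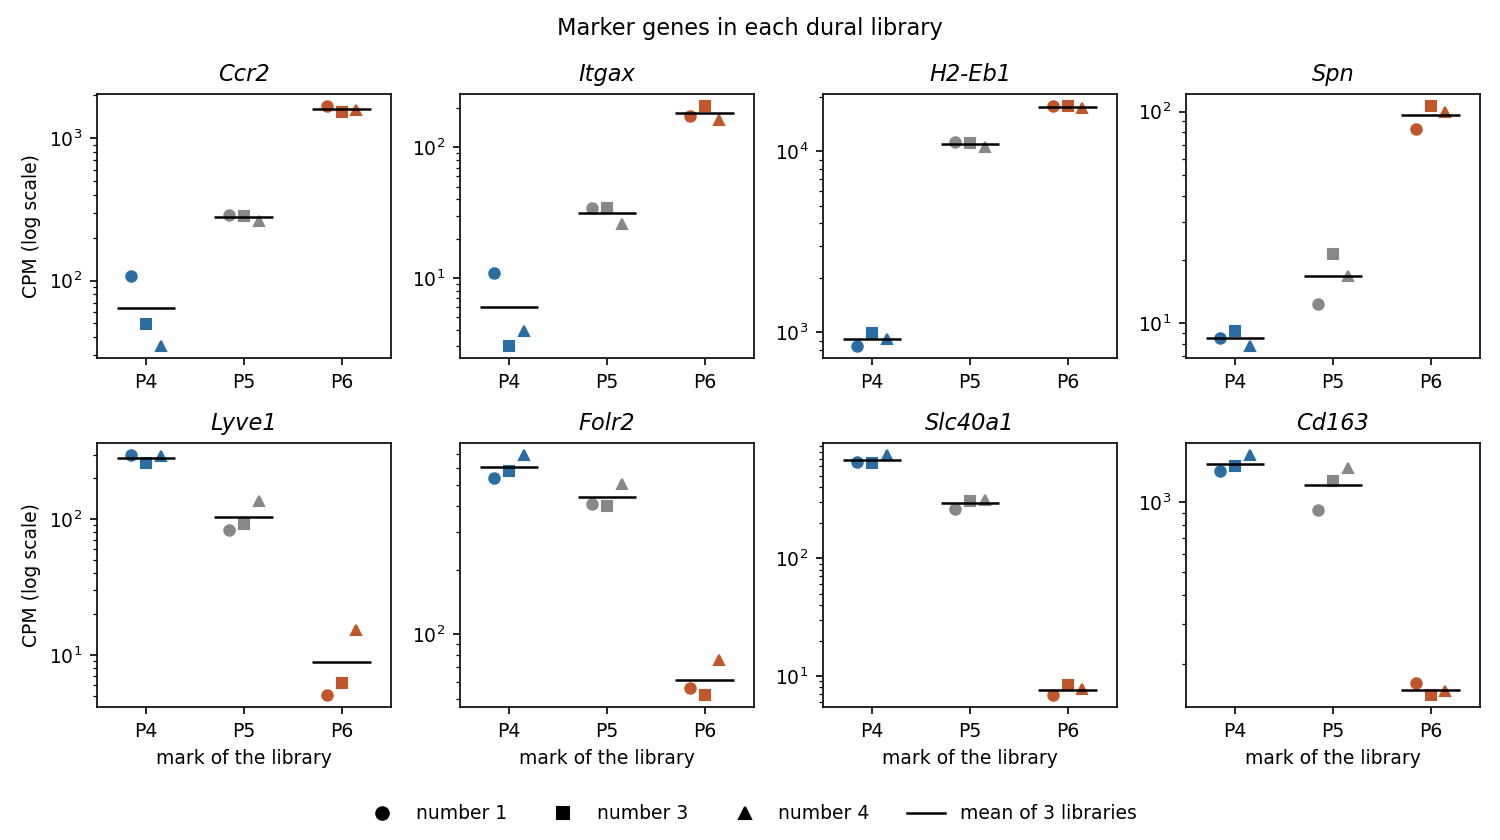
CPM of 8 genes (log axis) in each dural library, by mark, with circles, squares and triangles for numbers 1, 3 and 4 and a line at the mean of 3 libraries. Genes of the upper row are highest in P6 and those of the lower row highest in P4, with Folr2 at 51.8 to 75.5 CPM in P6 and 538 to 692 CPM in P4.

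Genes shared by macrophages in general were present at both ends. Adgre1, which encodes the antigen F4/80, was at 1548, 1618 and 1868 CPM in P4 and at 1714, 1855 and 1872 CPM in P6. These values overlapped (log2 difference 0.11 ± 0.09, edgeR adjusted p = 0.365, and -0.02 with library totals). Csf1r, the receptor of the growth factor macrophages live on, was at 5530, 6032 and 6645 CPM in P4 and at 4006, 4333 and 4488 CPM in P6, lower in every P6 library by 0.51 on the log2 scale (SE 0.09). Of 15 such genes, 7 were higher and 4 lower in P6. With library totals 4 were higher. The higher ones included Ptprc, the common leukocyte antigen CD45, with 1.43 ± 0.11, Lyz2, a lysozyme, with 0.88 ± 0.06, and Itgam, which encodes CD11b, with 0.66 ± 0.10. Mertk, a receptor for dying cells, was lower, with -0.91 ± 0.15. Adgre1 and Csf1r, defining genes of the labelled cell type, were thus present in all 6 libraries.

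MHC class II presents peptides from engulfed material to CD4 T cells, and its genes are switched on together by the coactivator CIITA, which docks on factors bound to a shared promoter module. All 11 genes of this group were higher in P6, with a median log2 difference of 3.35, against -0.004 over all genes tested. A stricter filter on low counts left 9 to test, and all 9 were higher. The 11 genes together took 0.602% to 0.696% of the counts of a P4 library, 5.06% to 5.45% of a P5 library and 8.16% to 8.45% of a P6 library. The 3 ranges did not overlap.

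Within the module, the Y box is read by the factor NF-Y and carries the letters GATTGG or their complement. The promoters of 3 class II genes are shown because these genes were higher together. The stretches run from 120 to 11 bases before the RefSeq start (GRCm38.p6), 5′ to 3′ on the strand of the gene, with GATTGG in capitals. The H2-Eb1 stretch also holds the complement ccaatc, left in lower case.
H2-Eb1: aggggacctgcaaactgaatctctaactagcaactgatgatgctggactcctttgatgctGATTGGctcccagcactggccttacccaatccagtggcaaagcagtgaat
H2-Aa: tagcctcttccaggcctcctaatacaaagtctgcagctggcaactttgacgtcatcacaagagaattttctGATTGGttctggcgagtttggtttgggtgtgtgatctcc
H2-DMb1: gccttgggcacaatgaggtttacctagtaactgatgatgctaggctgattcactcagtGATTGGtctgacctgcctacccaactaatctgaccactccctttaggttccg
They lie at chr17:34305747-34305856 on the plus strand, chr17:34287834-34287943 on the minus strand and chr17:34153071-34153180 on the plus strand. In the order shown, the first base in capitals stands 60, 49 and 62 bases before the start. Over the 300 bases held for each promoter, read on both strands for this 1 motif, all 8 class II genes with an entry carried it in at least 1 entry. Counted the same way, the letters stood in a promoter of 18.2% of all 27025 genes with an entry, and of 1 of 17 LYVE1-type genes described further on (5.88%). Over single promoters the share was 16.1% of 32851. A match is a description of the letters and does not show that a factor was bound. H2-Ab1, Cd74 and Ciita had no entry.

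H2-Eb1, the beta chain of I-E (chr17:34305867-34316674), was at 839, 990 and 912 CPM in P4 and at 17719, 17917 and 17448 CPM in P6. The lowest P6 library stood far above the highest P4 library, with a log2 difference of 4.28 ± 0.07 (edgeR adjusted p = 2.14e-13). H2-Aa and H2-Ab1, the chains of I-A, differed by 3.81 ± 0.08 and 3.91 ± 0.07. Cd74, the invariant chain that holds the peptide groove closed until the endosome, was at 2492, 2871 and 2741 CPM in P4 and at 33400, 35637 and 33731 CPM in P6, a log2 difference of 3.66 ± 0.06. Ciita itself was at 16.3, 27.3 and 23.2 CPM in P4 and at 199, 225 and 244 CPM in P6, a log2 difference of 3.32 ± 0.18 (edgeR adjusted p = 8.36e-08). Its P4 and P6 values did not overlap either. The peptide editors H2-DMa and H2-DMb1 differed by 2.39 ± 0.07 and 2.81 ± 0.09. H2-Ob and H2-Oa, which restrain that editing, were also higher, by 1.94 ± 0.20 and 3.33 ± 0.74.

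Genes of MHC class I moved the same way by far less. Of 18, 13 were higher and 0 lower in P6, with a median of 0.41. Tap1, a peptide pump of the endoplasmic reticulum, was at 155, 139 and 123 CPM in P4 and at 259, 277 and 270 CPM in P6 (log2 difference 0.95 ± 0.09), with no overlap. H2-T23 and H2-Q7 differed by 0.63 ± 0.08 and 0.90 ± 0.15. Reads of H2-Q7 and its near-identical neighbours may be assigned to the wrong copy. H2-M2, another class I relative, was at 0, 0.719 and 0 CPM in P4 and at 19.7, 34.3 and 20.2 CPM in P6.

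Of 13 genes of costimulation, the second signal to T cells, 8 were higher and 1 lower in P6. Without the P4 library of number 4, 5 were higher. Tnfsf9, which encodes the ligand 4-1BBL, was at 26.7, 47.7 and 35.2 CPM in P4 and at 164, 222 and 175 CPM in P6, a log2 difference of 2.35 ± 0.21. Cd40, which receives help from T cells, differed by 1.12 ± 0.17. Cd86, a ligand of CD28, was lower, at 237, 246 and 252 CPM in P4 and at 142, 155 and 170 CPM in P6 (log2 difference -0.65 ± 0.09). The inhibitory ligand Cd274 did not pass the test (0.39 ± 0.16, edgeR adjusted p = 0.0843). Cd86 and the class II genes stood on opposite sides.

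The P4 end was marked by genes of the LYVE1-type resident macrophage. All 20 members of that list were lower in P6, with a median log2 difference of -2.42, and in none did the libraries overlap. Their summed level was 35832, 35317 and 38804 CPM in P4 and 12161, 11962 and 12880 CPM in P6. This list shares Lyve1 and Folr2 with the 4 markers. Its 3 lectins of the Cd209 family are close copies that may share reads.

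Among its receptors, Cd163 takes up haemoglobin bound to haptoglobin and was at 1366, 1440 and 1601 CPM in P4 and at 166, 147 and 153 CPM in P6. The marks were far apart, with a log2 difference of -3.24 ± 0.14 (edgeR adjusted p = 8.56e-09). Timd4, which binds phosphatidylserine on dying cells and marks long-lived resident macrophages, was at 61.3, 79.5 and 75.4 CPM in P4. In P6 it was at 0.346, 2.87 and 6.86 CPM, a log2 difference of -4.37 ± 0.62. Vsig4, a complement receptor of the immunoglobulin family, was at 17.2, 10.5 and 10.4 CPM in P4 and at 0.0866, 0.082 and 0.707 CPM in P6. Mrc1, the mannose receptor CD206, changed least in the list, from 4601, 4755 and 5428 CPM to 2155, 2119 and 2270 CPM (log2 difference -1.18 ± 0.11). Stab1, a scavenger receptor, differed by -1.85 ± 0.21.

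Secreted products on the same list fell with them. Ccl24, an eosinophil attractant, was at 220, 217 and 246 CPM in P4 and at 11.4, 16.9 and 13.1 CPM in P6 (log2 difference -4.04 ± 0.14). Gas6, the bridge between dying cells and their receptors, was at 1505, 1550 and 1632 CPM in P4 and at 383, 438 and 410 CPM in P6 (-1.93 ± 0.08). F13a1, a clotting factor chain, and Pf4, a platelet-type chemokine, differed by -1.95 ± 0.11 and -1.29 ± 0.09. Selenop, a selenium carrier, was the least changed of the secreted ones (-1.24 ± 0.06), and the marks still did not overlap.

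Scavenger receptors bind modified lipoproteins and other debris. Of 15, 11 were lower and 3 higher in P6, with a median of -1.18, against 17.2% and 16.1% of all genes. The share of higher members was thus near that of all genes. With the stricter filter 0 were higher, and without the P4 library of number 4 or the P6 library of number 3 or 4 only 1 was. Colec12 was at 117, 113 and 102 CPM in P4 and at 4.85, 4.26 and 2.4 CPM in P6, a log2 difference of -4.86 ± 0.26. Stab2 and Scara3 differed by -4.09 ± 0.50 and -2.84 ± 0.31. Colec12 and Scara3 are also made by fibroblasts, whose summed level moved with them, and the part of those cells was not tested.

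C-type lectins recognise sugars on microbes and on the body's own glycoproteins, and they divided evenly, with 9 of 21 higher and 9 lower. Cd209f (chr8:4102787-4105835) was at 559, 547 and 494 CPM in P4 and at 8.84, 8.28 and 8.41 CPM in P6. The marks were far apart, with a log2 difference of -5.97 ± 0.11 (edgeR adjusted p = 2.14e-13). Cd209b and Cd209g differed by -5.30 ± 0.21 and -5.22 ± 0.18. Clec10a and Mgl2, neighbouring lectins for galactose-type sugars, went apart. Clec10a was at 750, 717 and 686 CPM in P4 and at 200, 190 and 165 CPM in P6 (-1.96 ± 0.09), whereas Mgl2 was at 597, 642 and 640 CPM in P4 and at 1484, 1389 and 1151 CPM in P6 (1.10 ± 0.10). No library of one mark overlapped the other for either gene.

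Resident macrophages recycle iron from haem and export it through ferroportin, encoded by Slc40a1. Of 14 iron and haem genes, 10 were lower and 2 higher in P6, and 1 was higher with library totals or without the P4 library of number 3 or 4. Slc40a1 (chr1:45908068-45926523) was at 659, 641 and 752 CPM in P4, at 259, 308 and 314 CPM in P5 and at 6.84, 8.45 and 7.71 CPM in P6. The 3 marks did not overlap, and P6 was 89.1-fold below P4 (log2 difference -6.48 ± 0.13, edgeR adjusted p = 6.69e-13). Blvrb, which reduces biliverdin, and Ncoa4, which delivers ferritin for breakdown, were lower by smaller amounts, with -1.25 ± 0.08 and -1.12 ± 0.18.

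Complement genes were more often lower than higher, with 11 and 4 of 19, against 17.2% and 16.1% of all genes. The share of higher members was thus near that of all genes. Cd55, which protects cells from complement, was at 61.4, 66.4 and 49.8 CPM in P4 and at 1.82, 0.246 and 0 CPM in P6 (log2 difference -6.50 ± 0.64). C2, a protease of the classical pathway, was at 36.8, 37.5 and 33.7 CPM in P4 and at 0.953, 0.246 and 0.778 CPM in P6 (-5.75 ± 0.32). C4b was at 779, 946 and 975 CPM in P4 and at 41.6, 56.7 and 50 CPM in P6 (-4.19 ± 0.20), though its copy C4a may share reads. C1qa did not pass the test, at 5275, 5174 and 5270 CPM in P4 and at 5027, 4886 and 4865 CPM in P6 (-0.09 ± 0.06, edgeR adjusted p = 0.283). C3, the central component, was higher in P6, at 62.7, 63.4 and 59.7 CPM in P4 and at 117, 214 and 250 CPM in P6 (1.65 ± 0.33). The group thus held members at both ends.

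Receptors and bridges for dying cells also parted. Of 15, 7 were higher and 4 lower in P6. Axl and Mertk are sister receptors that both bind Gas6. Axl was at 881, 889 and 885 CPM in P4 and at 1929, 2020 and 1912 CPM in P6, a log2 difference of 1.14 ± 0.06 (edgeR adjusted p = 2.34e-08). Mertk was at 155, 176 and 197 CPM in P4 and at 81.3, 91.4 and 108 CPM in P6. Their P4 and P6 values did not overlap, and they moved in opposite directions. Anxa1, a lipid-binding protein that damps inflammation, differed by 1.70 ± 0.13.

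At the P6 end, genes known from monocyte-derived macrophages were higher in part. Of 22, 9 were higher and 0 lower, with a median of 0.58. Without the P4 library of number 1 or 4, 1 was lower, and with library totals 2 were. S100a4, a calcium-binding protein, was at 12.6, 5.49 and 13.5 CPM in P4 and at 149, 125 and 147 CPM in P6 (log2 difference 3.74 ± 0.30). S100a6 differed by 2.53 ± 0.21. Some members known from classical blood monocytes did not pass the test, whereas Ccr2, on the same list, was higher. Ly6c2 was at 2.79, 6.08 and 0.925 CPM in P4 and at 7.36, 10.7 and 5.3 CPM in P6, and these values overlapped (1.25 ± 0.87, edgeR adjusted p = 0.314). Chil3 and Vcan stayed under 4 CPM in every P4 and P6 library and did not pass. Fn1, fibronectin, was at 379, 119 and 64.4 CPM in P4 and at 39.2, 47.9 and 49.5 CPM in P6 (-2.04 ± 0.73, edgeR adjusted p = 0.0768). Fn1 was called lower without the P4 library of number 4 (edgeR adjusted p = 0.0354), and by DESeq2 and limma-voom (adjusted p = 0.0137 and 0.0439).

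Genes of the nonclassical monocyte, which patrols vessel walls, gave 8 higher and 0 lower of 12, and 1 lower without the P6 library of number 1. Spn, the sialoglycoprotein CD43, was at 8.55, 9.22 and 7.81 CPM in P4 and at 82.7, 107 and 100 CPM in P6, a log2 difference of 3.50 ± 0.19 (edgeR adjusted p = 2.33e-08). Adgre4 and Treml4 differed by 1.72 ± 0.13 and 2.09 ± 0.46, and their libraries did not overlap. Cx3cr1, the fractalkine receptor, was at 1190, 1185 and 1158 CPM in P4 and at 1484, 1537 and 1673 CPM in P6 (0.41 ± 0.07).

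Integrins and other adhesion molecules hold leukocytes to vessels and matrix. Of 21, 17 were higher and 1 lower in P6, with a median of 0.92. Cd44, a hyaluronan receptor (chr2:102811141-102901665), was at 24.2, 21.5 and 16.8 CPM in P4 and at 192, 212 and 235 CPM in P6, a log2 difference of 3.36 ± 0.14 (edgeR adjusted p = 1.58e-09). Lyve1, also a hyaluronan receptor, was lower. Jaml, a junction-binding protein of leukocytes, differed by 3.76 ± 0.43. Itga1, a collagen-binding chain, was the 1 lower member (-2.78 ± 0.81), and it lost its call without the P4 library of number 1 (edgeR adjusted p = 0.0645) or of number 3 (edgeR adjusted p = 0.0568). With the number as a replicate block in the P4 and P6 libraries alone, Itga1 also lost its call (edgeR adjusted p = 0.0814).

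Transcription factors of the lineage gave 12 higher and 5 lower of 30, against 16.1% and 17.2% of all genes. The share of lower members was thus near that of all genes. Runx3, which shapes leukocyte fate in epithelia, was at 6.3, 10.3 and 9.54 CPM in P4 and at 69.5, 83.7 and 76.3 CPM in P6, a log2 difference of 3.12 ± 0.18. Batf3 and Bhlhe40 differed by 2.42 ± 0.25 and 1.81 ± 0.19. Maf, a factor that holds macrophage identity, was at 1367, 1487 and 1679 CPM in P4 and at 657, 759 and 762 CPM in P6 (-1.06 ± 0.09), with no overlap. Irf5 was higher (0.94 ± 0.08), Tfec lower (-2.67 ± 0.18), and Irf8 did not pass (0.21 ± 0.09, edgeR adjusted p = 0.0866).

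Genes named for microglia, the macrophages of the brain itself, were mostly on the P4 side, with 7 of 12 lower and 3 higher. Siglech was at 180, 164 and 174 CPM in P4 and at 22, 23.3 and 18 CPM in P6 (log2 difference -3.04 ± 0.11). Fcrls and P2ry13 differed by -1.49 ± 0.06 and -1.42 ± 0.11. Sparc, a matrix protein also made by fibroblasts, differed by -2.25 ± 0.20, and its values of 587, 631 and 388 CPM in P4 followed the order of the fibroblast sums.

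Cell cycle genes were on the P6 side. Of 24, 22 were higher in P6, 1 was lower and 1 did not pass, with a median log2 difference of 2.04. Mki67, the proliferation antigen Ki-67, was at 0.9, 2.75 and 1.27 CPM in P4 and at 18.4, 19.4 and 27.6 CPM in P6, a log2 difference of 3.70 ± 0.36 (edgeR adjusted p = 4.7e-06). Top2a, which untangles DNA, was at 4.14, 9.15 and 11.1 CPM in P4 and at 85.6, 92.1 and 87.5 CPM in P6 (3.41 ± 0.29). Rrm2, which makes the building blocks of DNA, and Bub1, a spindle checkpoint kinase, differed by 3.36 ± 0.31 and 3.75 ± 0.57. All these P6 values lay above all P4 values. Cenpf, a centromere protein, went against the group, at 22.2, 24.7 and 22.1 CPM in P4 and at 4.5, 6.81 and 7.71 CPM in P6 (-1.85 ± 0.24). Cenpa did not pass (-0.33 ± 0.13, edgeR adjusted p = 0.0681). Under the other settings tried 21 or 22 members were higher. The lower members were 2 with library totals, with a replicate block in 9 libraries, and without the P4 library of number 3.

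**Figure D3:**
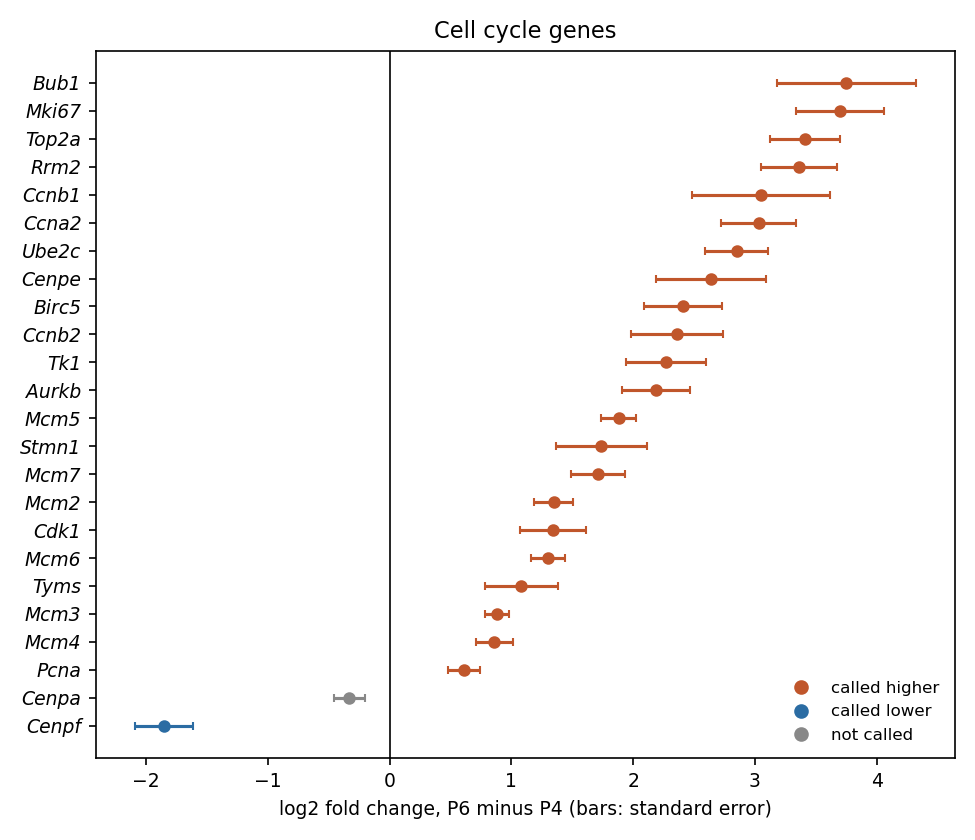
Log2 fold change, P6 minus P4, of each of the 24 cell cycle genes, with its standard error as a bar and its call as a colour. The points of 22 genes lie to the right of 0, reaching 3.75 for Bub1, and Cenpf alone is called lower at -1.85.

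Metabolic lists had more members higher than lower in P6, against 16.1% higher and 17.2% lower over all genes. Of 17 glycolysis genes 9 were higher and 1 lower, with a median of 0.47. Slc16a3, a lactate exporter, was at 11.3, 6.6 and 5.2 CPM in P4 and at 25.5, 27.1 and 23.3 CPM in P6 (log2 difference 1.73 ± 0.27), and Pfkp, a phosphofructokinase, differed by 1.11 ± 0.12. Gapdh and Pgk1 were also higher, by 0.89 ± 0.15 and 0.97 ± 0.24, though both have many near-identical copies in the genome that may take their reads. Aldoa did not pass (-0.17 ± 0.09, edgeR adjusted p = 0.147). Of 19 genes of oxidative phosphorylation 8 were higher and 0 lower, with 5 higher under library totals, without the P4 library of number 1 or 4, and without the P6 library of number 1. Sdhb, a subunit of complex II, differed by 0.59 ± 0.12. Of 18 genes of cholesterol synthesis and uptake 6 were higher and 0 lower, with 3 higher under library totals or without the P4 library of number 4. The median of both lists lay between 0.32 and 0.40.

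Lipid-handling genes gave 7 higher and 3 lower of 18, against 16.1% and 17.2% of all genes. The share of lower members was thus near that of all genes. Lgals3, galectin-3, was at 66.9, 23.3 and 18.6 CPM in P4 and at 284, 253 and 231 CPM in P6 (log2 difference 2.84 ± 0.49). Cd9, a tetraspanin, and Lpl, lipoprotein lipase, differed by 2.30 ± 0.23 and 1.34 ± 0.11. Apoe was lower, at 27761, 24577 and 27610 CPM in P4 and at 19490, 21609 and 20156 CPM in P6 (-0.38 ± 0.06). Trem2, a lipid sensor that goes with Cd9 and Lgals3 in many macrophage states, overlapped between the marks (0.15 ± 0.16, edgeR adjusted p = 0.521).

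Cathepsins digest proteins in the lysosome, and 8 of 14 genes of that list were lower and 5 higher. Ctsl was at 449, 395 and 365 CPM in P4 and at 146, 167 and 143 CPM in P6 (log2 difference -1.41 ± 0.10), and Ctsd differed by -1.32 ± 0.08. Ctss, which trims the invariant chain for class II loading, was at 2028, 1706 and 1617 CPM in P4 and at 4019, 4080 and 3820 CPM in P6 (1.16 ± 0.09). Ctsl and Ctss, which both cut the invariant chain, stood on opposite sides.

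Chemokines gave 12 higher and 5 lower of 21, against 16.1% and 17.2% of all genes. Ccl8 was at 374, 418 and 313 CPM in P4 and at 28.6, 24.3 and 19.4 CPM in P6, a log2 difference of -3.94 ± 0.16 (edgeR adjusted p = 3.34e-09). Ccl7, a monocyte attractant, was also lower (-0.85 ± 0.08), and Ccl2, the main ligand of CCR2, did not pass (-0.20 ± 0.08, edgeR adjusted p = 0.0731). Other chemokines were higher. Ccl5 was at 1.53, 2.35 and 2.26 CPM in P4 and at 15.1, 27.1 and 20.1 CPM in P6 (3.32 ± 0.27). Cxcl13, which draws B cells, Cxcl9 and Cxcl16, which draw T cells, differed by 2.83 ± 0.36, 1.76 ± 0.16 and 1.27 ± 0.08. Ccl22 differed by 2.55 ± 0.76 but lost its call in the fit of the P4 and P6 libraries alone (edgeR adjusted p = 0.0749). It also lost it without the P4 library of number 4 or the P6 library of number 3 or 4 (edgeR adjusted p = 0.0968, 0.0644 and 0.059).

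Of 19 chemokine and related receptors 6 were higher and 7 lower. S1pr1, which guides cells out of tissue along a lipid gradient, was at 150, 153 and 162 CPM in P4 and at 35.3, 32.6 and 32.6 CPM in P6 (log2 difference -2.20 ± 0.10). Fpr1, a sensor of bacterial peptides, and Ccr3 differed by -2.61 ± 0.22 and -2.55 ± 0.59.

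Cytokines gave 5 higher and 3 lower of 19, against 16.1% and 17.2% of all genes, so the share of lower members was near that of all genes. Il1b was at 218, 315 and 141 CPM in P4 and at 776, 1468 and 952 CPM in P6, with no overlap (log2 difference 2.25 ± 0.43, edgeR adjusted p = 0.00695). Without the libraries of number 1 its call was lost (2.41, edgeR adjusted p = 0.0811). Its antagonist Il1rn was also higher (1.87 ± 0.47) and lost its call in the same way (edgeR adjusted p = 0.104) and without the P4 library of number 1 or 4 (edgeR adjusted p = 0.0692 and 0.0589). Tnf was at 103, 133 and 107 CPM in P4 and at 233, 320 and 308 CPM in P6 (1.32 ± 0.15). Il10, which restrains macrophages, was at 103, 96.1 and 70.3 CPM in P4 and at 26.7, 45.4 and 56.8 CPM in P6 (-1.06 ± 0.25). With the number as a replicate block in the P4 and P6 libraries alone, Il10 lost its call (edgeR adjusted p = 0.0878). Tnfsf13b, the B cell survival factor BAFF, differed by 2.46 ± 0.28, and Tnfsf10, the death ligand TRAIL, by -1.38 ± 0.25.

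Cytokine receptors gave 12 higher and 5 lower of 24, against 16.1% and 17.2% of all genes. The share of lower members was thus near that of all genes. Csf2ra, the GM-CSF receptor chain, was at 105, 101 and 107 CPM in P4 and at 293, 308 and 259 CPM in P6 (log2 difference 1.46 ± 0.09). The chains of the TGF-beta receptor were split, with Tgfbr1 at 1.32 ± 0.09 and Tgfbr2 at -0.61 ± 0.09. Il2rg, the chain shared by several interleukin receptors, differed by 1.53 ± 0.15.

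Toll-like receptors and their adaptors gave 11 higher and 4 lower of 23, and 7 higher with library totals. The share of lower members was near that over all genes (17.2%). Tlr9, a sensor of DNA in endosomes, was at 61.8, 73.8 and 74.3 CPM in P4 and at 143, 189 and 183 CPM in P6 (log2 difference 1.29 ± 0.16). Tlr1 and Tlr2, which pair to sense lipoproteins, differed by 1.10 ± 0.11 and 0.93 ± 0.18. Tlr5, the flagellin receptor, was at 38.4, 54.2 and 72.9 CPM in P4 and at 19.8, 17.5 and 20.3 CPM in P6 (-1.53 ± 0.24). Tlr4 and Tlr7 were lower by 0.60 and 0.67 on the log2 scale, with SE of 0.12 and 0.10. Of 6 Fc receptor genes 1 was higher and 1 lower, shares near those over all genes (16.1% and 17.2%). Of these genes 2 were higher without the P4 library of number 1. Fcgr4, which binds antibody on targets, was at 40.3, 51.1 and 40.2 CPM in P4 and at 186, 212 and 193 CPM in P6 (2.17 ± 0.13). Fcgrt, which recycles antibody, was at 1208, 1249 and 1216 CPM in P4 and at 525, 505 and 453 CPM in P6 (-1.31 ± 0.07).

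Interferon-stimulated genes mostly did not pass. Of 24, 1 was higher and 8 were lower in P6, against 16.1% and 17.2% of all genes. The lower members were 5 without the P6 library of number 1 or 3. The higher members were 2 without the P4 library of number 1 or 3 or the P6 library of number 1, and 3 without all libraries of number 1. Iigp1, a GTPase induced by interferon gamma, was at 117, 115 and 104 CPM in P4 and at 38.8, 35.9 and 37.5 CPM in P6 (log2 difference -1.58 ± 0.09). Ifit3 differed by -0.92 ± 0.22. Ifit1 and Oas2 differed by -1.10 ± 0.32 and -0.77 ± 0.23, and both lost their calls without the libraries of number 1 (edgeR adjusted p = 0.155 and 0.0823) and without the P6 library of number 1 or 3. Ifit1 also lost its call without the P4 library of number 1 or 3, and Oas2 without that of number 4. With the number as a replicate block Ifit1 lost its call in 9 libraries and in the P4 and P6 libraries alone.

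Digestion of tissue can itself switch on immediate early and heat shock genes. Of 21, 9 were higher and 1 lower in P6, against 16.1% and 17.2% of all genes. With the number as a replicate block as many as 15 were higher, and 2 were lower in the block of 9 libraries. Hspa1a and Hspa1b, near-identical heat shock genes that share reads, differed by 1.62 ± 0.13 and 1.99 ± 0.12. Dusp1, a phosphatase, was at 1895, 1792 and 1922 CPM in P4 and at 3681, 3724 and 3202 CPM in P6 (log2 difference 0.92 ± 0.09), while Ier3 was at 831, 1056 and 1116 CPM in P4 and at 481, 538 and 520 CPM in P6 (-0.97 ± 0.10). The part of the preparation in these differences was not tested.

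Growth factors gave 5 higher and 8 lower of 20, against 16.1% and 17.2% of all genes. Igf1 was at 676, 708 and 655 CPM in P4 and at 148, 161 and 130 CPM in P6 (log2 difference -2.22 ± 0.09, edgeR adjusted p = 9.34e-10). Pdgfc, a mitogen of fibroblasts, was at 55.5, 67.9 and 73.4 CPM in P4 and at 6.15, 6.23 and 4.67 CPM in P6 (-3.53 ± 0.17), and Bmp2 differed by -2.19 ± 0.19. Wnt5a, also a product of fibroblasts, was lower at 3.87 to 6.39 CPM in P4 and 0.0707 to 0.693 CPM in P6. Areg and Gdf3 went the other way, with 3.97 ± 0.74 and 3.54 ± 0.45.

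**Figure D4:**
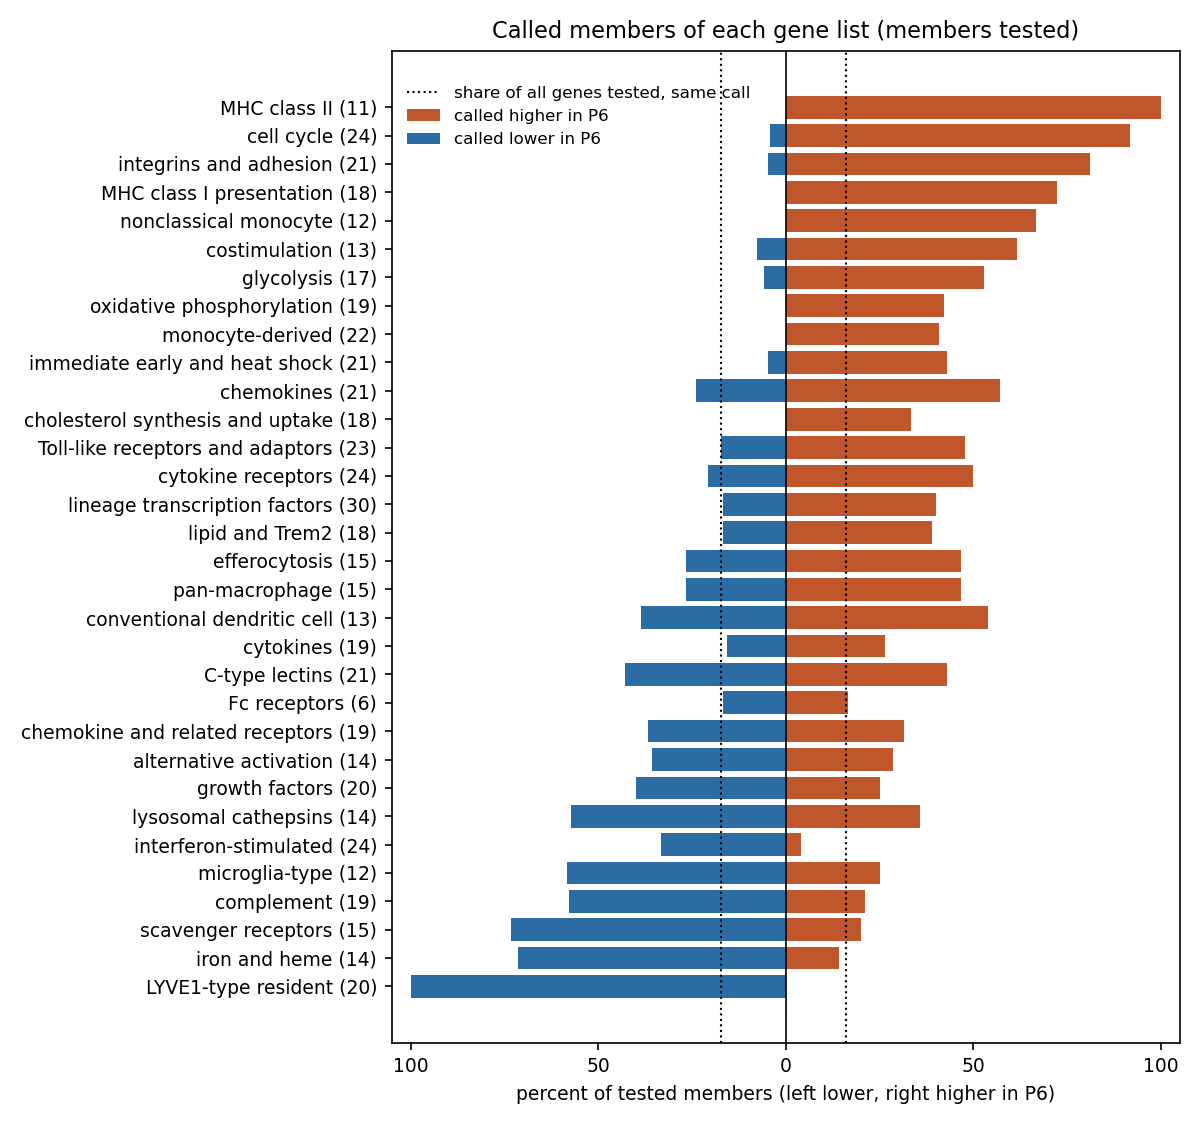
For each gene list, the bar to the right gives the percent of tested members called higher in P6 and the bar to the left the percent called lower, with the number tested in brackets and dotted lines at the shares over all genes (16.1% and 17.2%). MHC class II, cell cycle and integrin genes stand at the top, and iron and haem and LYVE1-type genes at the bottom.

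Among genes whose libraries did not overlap, those with the largest changes included several that were nearly silent at one end. Mmp12, macrophage elastase, was at 0, 0.458 and 0.347 CPM in P4 and at 41.5, 38.3 and 31 CPM in P6 (log2 difference 6.93 ± 0.47, edgeR adjusted p = 3.27e-07). Klrb1b, a lectin-type receptor known from NK cells, differed by 6.64 ± 0.79. Ear2, a ribonuclease of a family of close copies, was at 0.72, 2.61 and 1.5 CPM in P4 and at 98.4, 92.7 and 67.1 CPM in P6 (5.68 ± 0.40). Sirpb1a, also of a family of close copies, differed by 5.66 ± 0.25. Kcnn4, a calcium-gated potassium channel, and Tnip3, an inhibitor of NF-kB signalling, differed by 4.33 ± 0.37 and 4.47 ± 0.61. Lyz1, whose reads may be shared with Lyz2, differed by 4.08 ± 0.18.

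On the P4 side Pla2g2d, a secreted phospholipase, was at 930, 978 and 989 CPM in P4 and at 19.8, 21.1 and 13.6 CPM in P6 (log2 difference -5.73 ± 0.15, edgeR adjusted p = 1.42e-11). Tln2, which links integrins to actin, was at 150, 178 and 180 CPM in P4 and at 4.94, 4.35 and 6.57 CPM in P6 (-4.99 ± 0.23). Crybb1 differed by -5.22 ± 0.57. Pappa, a protease of IGF-binding proteins, was at 38.1, 28.2 and 6.42 CPM in P4 and at 0.606, 0.984 and 0.283 CPM in P6, and it lost its call with limma-voom (adjusted p = 0.0811).

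Among genes with at least 20 CPM at both ends, those most raised in P6 beside Ccr2, Cd44 and MHC class II were leukocyte genes. Plbd1, a lysosomal phospholipase-like protein, was at 79.5, 84.4 and 76 CPM in P4 and at 788, 912 and 876 CPM in P6 (log2 difference 3.42 ± 0.09, edgeR adjusted p = 1.11e-11). Lsp1, an actin-binding protein of leukocytes, was at 40, 41.4 and 34.3 CPM in P4 and at 362, 368 and 341 CPM in P6 (3.21 ± 0.11). Slamf9, Cd72 and Gpr132 differed by 2.94 ± 0.14, 2.93 ± 0.13 and 2.89 ± 0.32. Of the 12 most lowered genes with at least 20 CPM at both ends, 8 were matrix or matrix-linked genes. They were Col1a1, Col1a2, Col6a1, Col6a2, Fmod, Ogn, Mfap4 and Igfbp5, with log2 differences from -3.76 to -3.17. Col1a1, itself a member of the fibroblast list, was at 1141, 1388 and 818 CPM in P4 and at 127, 145 and 90.6 CPM in P6. The part of fibroblast RNA in these differences was not tested.

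Markers of other leukocytes were read as well. Of 13 genes of conventional dendritic cells 7 were higher and 5 lower in P6, against 16.1% and 17.2% of all genes. The summed level of all 17 genes on that list was 338, 317 and 299 CPM in P4. In P6 that sum was lower, at 249, 254 and 220 CPM, with no overlap. Clec9a was at 2.07, 1.11 and 1.1 CPM in P4 and at 18.7, 16.9 and 15.8 CPM in P6 (log2 difference 3.61 ± 0.34), and Flt3 and Dpp4 differed by 3.13 ± 0.50 and 3.58 ± 0.32. Xcr1 was at 0 in all P4 libraries and at 1.63 to 1.72 CPM in P6. Zbtb46, a factor of that lineage, was lower, at 7.02, 19.2 and 15 CPM in P4 and at 4.33, 3.44 and 4.24 CPM in P6 (-1.78 ± 0.34). Kit, on the same list, was also lower (-3.17 ± 0.59). Cd4, known from T cells, was at 282, 320 and 310 CPM in P4 and at 34.8, 47.5 and 32.1 CPM in P6 (-3.00 ± 0.15), while the CD3 genes were near 0 at both ends. The mast cell genes Mcpt4 and Tpsb2 were lower, with 53.9, 42.8 and 10.9 CPM of Mcpt4 in P4 and at most 1.23 CPM in P6. Of 11 endothelial genes 1 was lower, against 2 with DESeq2, 4 with limma-voom and 8 without the P6 library of number 3. The endothelial sum of that library was 216 CPM, and those of the other P6 libraries were 26.3 and 53.2 CPM.

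**Figure D5:**
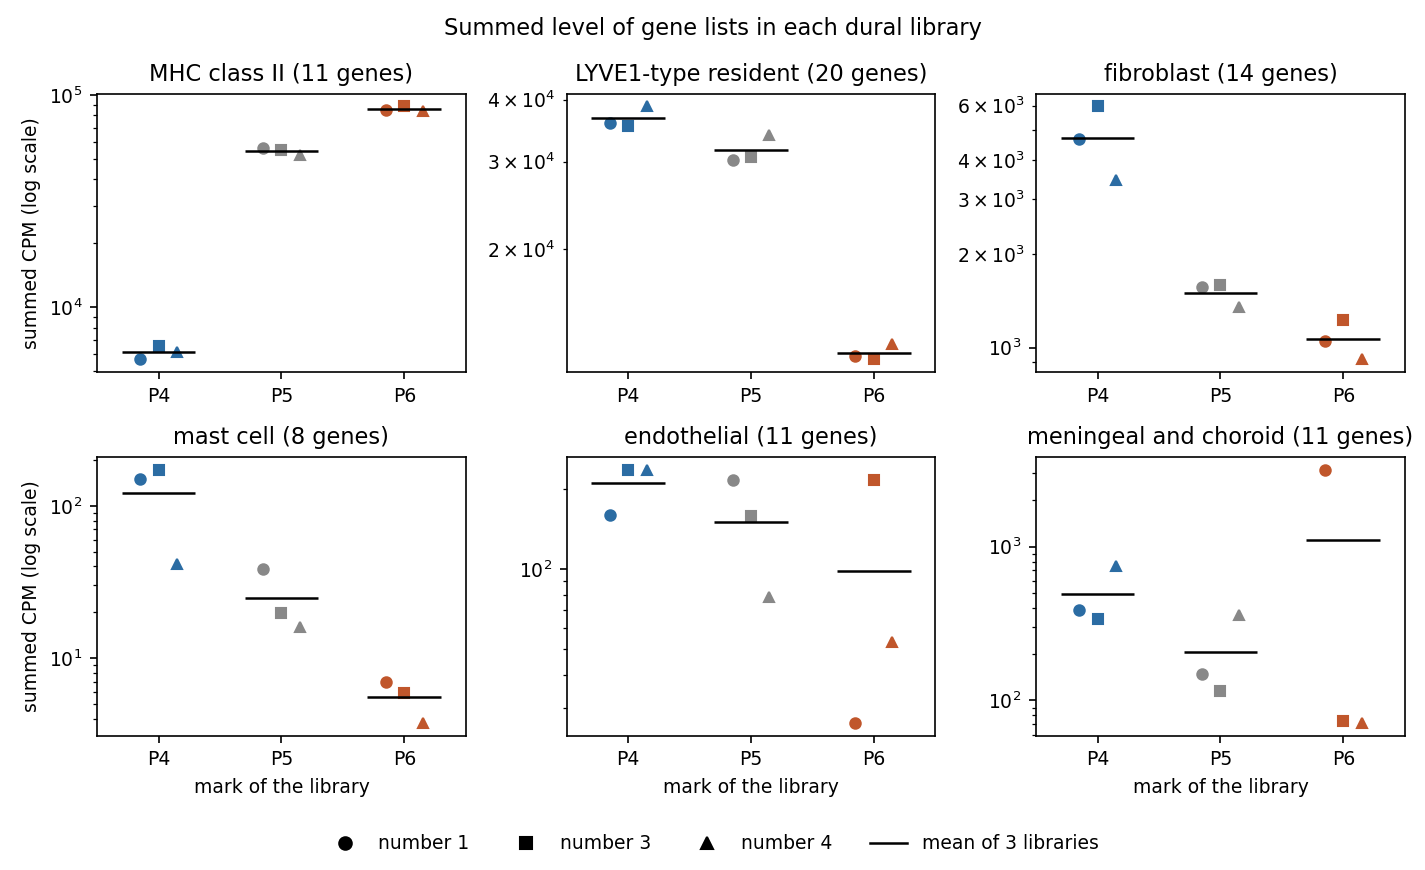
Summed CPM (log axis) of the members of 6 gene lists in each dural library, by mark, with circles, squares and triangles for numbers 1, 3 and 4 and a line at the mean of 3 libraries. MHC class II sums lie at 5668 to 6568 CPM in P4 and 84145 to 88509 CPM in P6, and fibroblast and mast cell sums fall from P4 to P6. The P6 library of number 1 stands apart for meningeal and choroid genes at 3165 CPM, most of it from the single gene Ttr.

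The libraries marked P5 lay between the ends, but not at one distance for all groups of genes. The mean log2 CPM of P5 lay between those of P4 and P6 in 3877 of the 4412 called genes (87.9%), and all 3 P5 libraries did so in 1347 (30.5%). Among the called genes with a P5 mean between, P5 was nearer to P4 in 1237 of 1908 higher and 1191 of 1969 lower genes. No test was made of the position of P5. All 11 MHC class II genes had a P5 mean between the ends, and 10 of them were nearer to P6. All 20 LYVE1-type genes were between as well, and 19 of them were nearer to P4. H2-Eb1 was at 11208, 11091 and 10508 CPM in P5, and Cd163 had a P5 mean of 1186 CPM. So the P5 libraries had much of the class II level of P6 together with most of the LYVE1-type level of P4, with class II sums of 56023, 54940 and 52157 CPM and LYVE1-type sums of 30277, 30605 and 33901 CPM. Of 23 called cell cycle genes 22 were between and 18 nearer to P4, and Mki67 was at 4.77, 6.75 and 6.46 CPM in P5. Of 13 called fibroblast genes 12 were between and 11 nearer to P6.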

How the data were processed

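RNA from macrophages sorted by flow cytometry from perfused mice was sequenced as 75-nt single-end reads without strand, per the labels' protocols. The deposited values are gene counts. Tools listed in the submitters' processing notes were DESeq2 1.20.0, STAR 2.4.0j and featureCounts, and the build was GRCm38, with no role given. The authors' table is called normalised, but its values are whole numbers with unequal totals and were read as raw counts. The 15 diaphragm columns were not used in any test.

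The 9 dural libraries were fitted in edgeR 4.0.16 (R 4.3.3) with the mark as the group, TMM factors, filterByExpr and the robust quasi-likelihood test, and P6 was set against P4. P-values were adjusted by Benjamini-Hochberg over 13239 genes. SE is the absolute log2 fold change over the square root of F. The script was tested on simulated data. Alternatives were other scalings and filters, DESeq2 1.42.0, limma-voom (limma 3.58.1), the P4 and P6 libraries alone, a replicate block, and leaving out libraries.

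The members and lists were chosen with earlier results of these data known. Named genes were the 12 highest and 12 lowest changes among called genes without overlap and with at least 20 CPM at the higher end, the same with at least 20 CPM at both ends, up to 4 called members of each list with the largest change and at least 5 CPM at the higher end, the markers, and every MHC class II and LYVE1-type gene. Csf1r, Cx3cr1, Maf, Axl, Il10, Tnf, Ctss, Igf1, Cd86, Apoe, Mgl2, Ccl7, Cxcl16, Cxcl9, Tlr4, Tlr7, Irf5, C3, Bmp2, Tgfbr2, Cenpf, Zbtb46 and Xcr1 fall outside that rule and were named after their values were seen. So were Adgre1, Aldoa, C1qa, Ccl2, Cd274, Cenpa, Chil3, Fn1, Irf8, Ly6c2, Trem2, Ttr and Vcan, which did not pass the test.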

Additional observations from a re-analysis of the deposited data

How the results depend on the processing

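Both counts of called genes stayed within 1.5 times of 2135 and 2277 under the alternatives run, from 1609 to 2547 higher and from 1873 to 3000 lower. Leaving out 1 library gave 1761 to 1986 higher and 1873 to 2180 lower genes. Leaving out the 3 libraries of number 1, an alternative chosen after seeing the data, gave 2236 and 2403. With the number as a replicate block, 2547 genes were higher and 2613 lower in 9 libraries, and 2208 and 2265 in 6. Over all genes, the deviations of P4 and P6 from the means of their marks correlated at 0.01, 0.13 and 0.04 for numbers 1, 3 and 4. Correlations over all genes cannot settle whether the numbers pair the libraries, since single genes may still follow the number. The block moved the higher immediate early genes from 9 to as many as 15. In the 6-library block Itga1, Ifit1 and Il10 missed the threshold (edgeR adjusted p = 0.0814, 0.108 and 0.0878), and Ifit1 did so in 9 libraries (edgeR adjusted p = 0.0647). Without a filter on low counts 2181 genes were called higher and 2567 lower, but the prior degrees of freedom were infinite, so each gene's own spread was not used and these calls say nothing about stability. Of 215 named genes that were called, 195 were called in every alternative that tested them, besides that one. The other 20 lost the call in at least 1, and the cause was not tested. Some genes of low level, such as H2-Eb2, H2-Oa and Xcr1, were not tested under the stricter filter. Adgre1 changed sign with library totals (-0.02). Ttr, not called, ranged from -3.33 to 6.96 when 1 library was left out, changing sign without P6 replicate 1 and without the libraries of number 1 (-3.88). Genes under about 1 CPM at one end have fold changes that depend on the prior count.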
